A study of Homo sapiens with 13 samples.

Results

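Metallothioneins and the genes around them that answer to zinc were followed in cultured human osteoblasts, the cells that form bone. The set held 10 genes of the 43836 in the count table: the metallothioneins MT1A, MT1E, MT1F, MT1G, MT1M, MT1X and MT2A, the zinc exporter gene SLC30A1, the zinc sensor gene MTF1 and the zinc importer gene SLC39A10. They were chosen by name, and the Ensembl identifiers of all 10 were found in the table. Messenger RNA had been sequenced from hFOB 1.19, a human fetal osteoblast line immortalised with a temperature-sensitive viral T antigen, so every library came from 1 line. Positive controls (PC, 2 libraries) were grown in medium with 10% fetal bovine serum and the vehicle DMSO. Negative controls (NC, 2 libraries) had the vehicle but no serum. The compound groups were also without serum and received 1 µg/mL of resveratrol (RES, 3 libraries), of peonidin-3-O-glucoside, an anthocyanin (POG, 3 libraries), or of the compound labelled DEG (2 libraries). The labels do not spell DEG out, and the treatment notes name delphinidin-3-glucoside beside the other compounds. Nothing in the labels says whether the libraries of a group came from separate cultures, so the p-values measure the spread between these libraries, which may be technical.

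Metallothioneins are very small proteins whose many cysteines hold zinc and copper in clusters. When free zinc rises in a cell, the transcription factor encoded by MTF1 binds metal response elements, short DNA motifs in front of metallothionein genes and of SLC30A1, and switches these genes on. SLC30A1 (ZnT1) carries zinc out through the plasma membrane, whereas SLC39A10 (ZIP10) carries it in and is known to be lowered when zinc is plentiful. Osteoblasts need zinc for alkaline phosphatase, the enzyme that prepares bone matrix for mineral. The messenger RNAs of metallothioneins are also known to answer to glucocorticoids and to oxidative stress.

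In hg38, the build of the counts, the 7 metallothionein genes sat together on chromosome 16 within 75.6 kb, from 56608584 to 56684196. MT2A (ENSG00000125148.6) lay at chr16:56608584-56609497, MT1E (ENSG00000169715.14) at chr16:56625475-56627112, MT1M (ENSG00000205364.3) at chr16:56632659-56633981 and MT1A (ENSG00000205362.11) at chr16:56638666-56640087. MT1F (ENSG00000198417.6) followed at chr16:56657731-56660698, MT1G (ENSG00000125144.13) at chr16:56666730-56668065 and MT1X (ENSG00000187193.8) at chr16:56682470-56684196. MT1G was the only 1 of the 7 on the minus strand. SLC30A1 (ENSG00000170385.9) lay at chr1:211571568-211579161 and MTF1 (ENSG00000188786.9) at chr1:37809574-37859592, both on the minus strand. SLC39A10 (ENSG00000196950.13) lay at chr2:195575977-195737702 on the plus strand. All 10 were annotated as protein coding in GENCODE v44.

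Because MTF1 reads its motif in front of these genes, the sequences upstream of the start sites are shown for the 3 members in which the core of that motif was found. The core was searched as TGCACNC and TGCGCNC on both strands in the 250 bases before each start. RefSeq start sites on GRCh38.p14 were at hand for 5 members, with 6 windows in all, and MT1A, MT1E, MT1F, MT1G and MT1M were not in that table. The window of MT2A, on the plus strand at chr16:56608334-56608583, held 7 matches, 5 on the gene's strand and 2 on the opposite strand. The window of MT1X, on the plus strand at chr16:56682220-56682469, held 4 matches, 3 on its strand and 1 opposite. The window of SLC30A1, on the minus strand at chr1:211579162-211579411, held 1 match, on the opposite strand. No match was found in the window of MTF1 or in either window of SLC39A10. No matches overlapped each other. Among 35116 windows of the same length, 24.8% held at least 1 match, 0.37% at least 4 and 0.0313% at least 7. A match describes these letters only and is not a measured binding site. The sequences run 5′ to 3′ on the gene's strand, with the matches in capitals.
MT2A: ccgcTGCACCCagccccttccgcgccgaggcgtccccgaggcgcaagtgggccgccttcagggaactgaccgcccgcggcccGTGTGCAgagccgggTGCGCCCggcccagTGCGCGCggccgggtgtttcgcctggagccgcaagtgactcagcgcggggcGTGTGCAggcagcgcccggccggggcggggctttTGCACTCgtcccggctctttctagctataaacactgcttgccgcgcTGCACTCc
MT1X: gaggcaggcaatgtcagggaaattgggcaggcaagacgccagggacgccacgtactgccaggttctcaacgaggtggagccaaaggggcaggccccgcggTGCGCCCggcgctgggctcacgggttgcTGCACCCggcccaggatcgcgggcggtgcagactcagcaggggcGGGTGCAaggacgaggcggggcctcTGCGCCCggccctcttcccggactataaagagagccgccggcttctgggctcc
SLC30A1: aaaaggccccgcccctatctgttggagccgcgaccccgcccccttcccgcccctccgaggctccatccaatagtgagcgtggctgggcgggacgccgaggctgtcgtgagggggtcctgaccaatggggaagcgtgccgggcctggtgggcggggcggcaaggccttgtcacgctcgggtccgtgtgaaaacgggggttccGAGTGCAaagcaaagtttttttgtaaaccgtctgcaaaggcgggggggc

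Levels are given as CPM, the reads of a gene scaled to a common library total, here with TMM, a correction that sets the bulk of genes equal between libraries. The libraries held 38464619 to 51416358 counted reads. MT2A was by far the most abundant member. Its level was 1459 and 1320 CPM in the PC libraries and 974 and 968 CPM in the NC libraries. It was 961, 934 and 919 CPM with RES, 1033, 1012 and 1032 CPM with POG, and 963 and 990 CPM with DEG. Both serum libraries were thus above the other 10, and the POG libraries were above the NC, RES and DEG libraries.

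MT1E, next in abundance, stood at 99.0 and 90.5 CPM in PC and at 68.5 and 73.2 CPM in NC. It was 66.0, 64.6 and 66.7 CPM with RES, 67.9, 68.5 and 72.03 CPM with POG, and 62.98 and 62.2 CPM with DEG. Again both serum libraries were the highest, and both DEG libraries were the lowest of the 12.

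The other metallothioneins were scarce. MT1X was at 6.98 and 5.78 CPM in PC, 3.77 and 3.49 CPM in NC, 3.70, 4.58 and 4.01 CPM with RES, 4.86, 4.49 and 4.07 CPM with POG, and 3.38 and 3.33 CPM with DEG. MT1A was at 3.56 and 3.15 CPM in PC, 1.29 and 1.76 CPM in NC, 1.52, 1.74 and 1.71 CPM with RES, 1.84, 1.77 and 2.00 CPM with POG, and 2.09 and 1.58 CPM with DEG. For both genes the serum libraries were above all the others. MT1F differed between the NC libraries, at 2.40 and 3.75 CPM, by more than any other group's libraries differed, and those of PC (2.97 and 2.49 CPM) lay inside that range. MT1F was 2.92 to 3.21 CPM with RES, 3.24 to 3.85 CPM with POG and 3.28 and 3.18 CPM with DEG. MT1G stayed between 0.336 and 0.688 CPM, which was 13 to 32 reads a library. MT1M had 0 to 10 reads a library, with 0 reads in 1 NC and 1 DEG library, and was left out of the test by the filter on low counts. Of the 10 members, 9 were therefore tested.

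**Figure D1:**
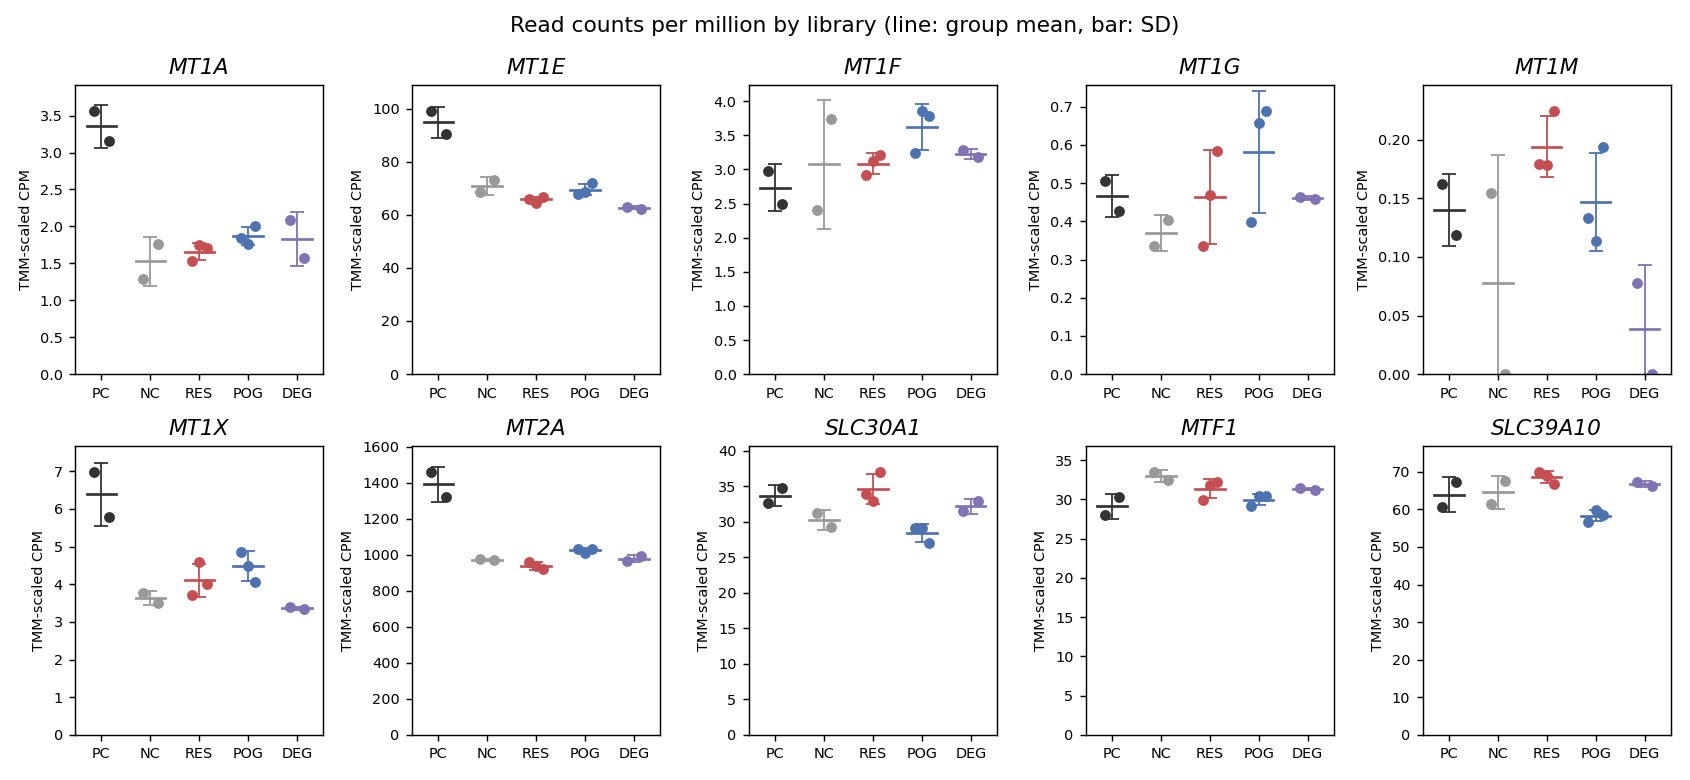
Each panel plots 1 member, with the 5 groups on the x axis and TMM-scaled CPM on the y axis, which starts at 0; points are libraries, horizontal lines are group means and bars are SD. The PC points of MT2A, MT1E, MT1X and MT1A sit above all other points, at 1320 and 1459 CPM for MT2A, while MT1M rests on 0 to 10 reads a library and its bars for NC and DEG run to the axis.

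Compared per length, that is as CPM per kilobase of transcript, the NC means were 2422 for MT2A, 94.9 for MT1E, 8.99 for MT1X, 7.23 for MT1F, 3.85 for MT1A, 0.900 for MT1G and 0.195 for MT1M. On the same scale SLC39A10 was at 12.3, SLC30A1 at 5.14 and MTF1 at 4.16. MT2A ranked between 6 and 8 among the 43214 genes with a length in every library. Summed over the 7 genes, metallothionein transcripts made up 1497 ± 106 CPM in PC (SD, n = 2) and 1051 ± 0.01 CPM in NC (SD, n = 2). The sums with compound were 1013 ± 20 CPM for RES (SD, n = 3), 1106 ± 12.6 CPM for POG (SD, n = 3) and 1048 ± 17.9 CPM for DEG (SD, n = 2). MT2A supplied 92.1% to 93.3% of the sum in each library, and MT2A and MT1E together 99.0% to 99.2%. The serum sum was 1.42 times the NC sum, whereas those of the compounds were 0.964, 1.05 and 0.997 times it.

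**Figure D2:**
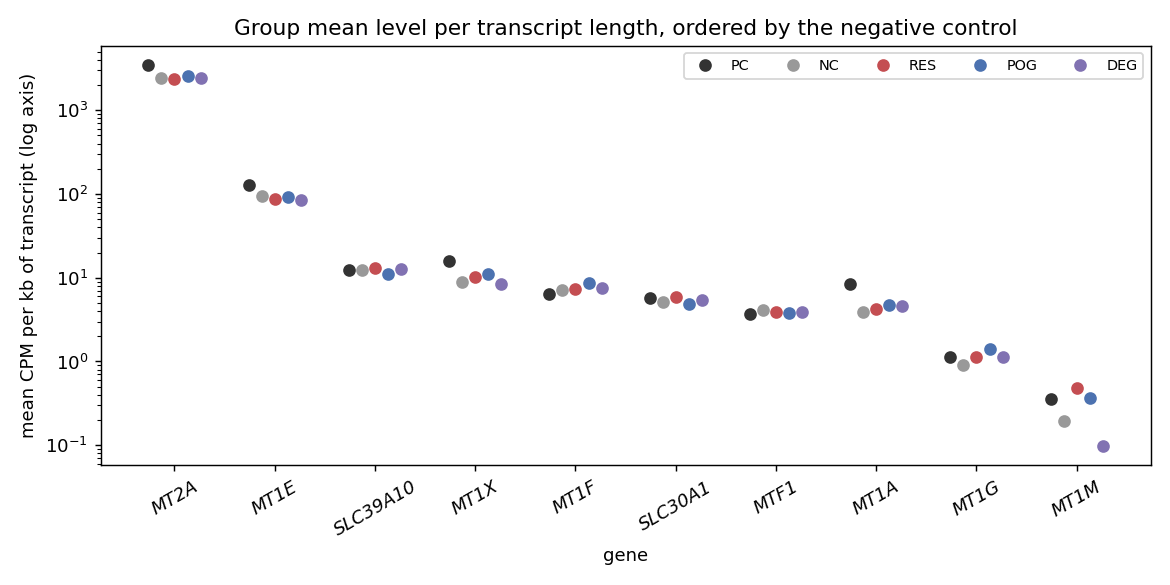
Group mean level of each member in CPM per kilobase of transcript on a log y axis, with genes on the x axis ordered by their NC mean and 1 point per group. MT2A, at 2422 in NC, stands above MT1E at 94.9, and all other members lie below 20.

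Metallothionein genes are close copies, which bears on how reads can be assigned. Their coding sequences were 88.5% to 94.5% identical over the 21 pairs, with a median of 91.8%. Of the 50-base windows along the transcript, 51% of those of MT1X, 19.9% of MT1G, 14.6% of MT1M and 11.1% of MT2A also occurred in a transcript of another gene. The share was 5.34% to 6.12% for MT1E, MT1A and MT1F. Windows of 150 bases, the length of a read, were shared only by MT1X (6.67%), which overlaps a long non-coding RNA gene on the same strand. How multi-mapped reads were counted is not given in the sources used here, so the counts of MT1X, MT1G and MT1M are the least certain. MTF1 and SLC39A10 overlap pseudogenes or a small RNA gene on the opposite strand.

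SLC30A1, the exporter, was at 32.6 and 34.7 CPM in PC, 31.3 and 29.3 CPM in NC, 33.9, 32.9 and 37.0 CPM with RES, 29.2, 29.2 and 26.9 CPM with POG, and 31.4 and 32.9 CPM with DEG. The 3 RES libraries lay above both NC libraries, and the 3 POG libraries lay below them. MTF1, the sensor, was at 28.0 and 30.2 CPM in PC, 33.5 and 32.5 CPM in NC, 29.9, 31.9 and 32.2 CPM with RES, 29.1, 30.4 and 30.4 CPM with POG, and 31.4 and 31.2 CPM with DEG. Its NC libraries were the highest of the 12. SLC39A10, the importer, was at 60.6 and 67.3 CPM in PC, 61.3 and 67.6 CPM in NC, 69.9, 68.9 and 66.7 CPM with RES, 56.7, 59.7 and 58.5 CPM with POG, and 67.4 and 66.1 CPM with DEG. Its POG libraries were the lowest of the 12, and the gap between the NC libraries was wider than the whole range with RES.

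Osteoblasts grown with serum had more metallothionein mRNA than serum-starved osteoblasts. MT2A was 1.43-fold higher in PC than in NC (log2 fold change 0.52 ± 0.03 SE, FDR = 1.33e-35), MT1E 1.34-fold (0.42 ± 0.05, FDR = 5.94e-16), MT1X 1.76-fold (0.82 ± 0.14, FDR = 1.16e-07) and MT1A 2.20-fold (1.14 ± 0.21, FDR = 1.45e-07). These FDR values are from edgeR's exact test over 17092 genes, and a gene was called at an FDR under 0.05. For each of these 4 genes both serum libraries were above both starved ones. The same held for MT1G, which was not called, and the share of all genes separated in this way was not counted. MT1F (log2 fold change -0.17 ± 0.18 SE, FDR = 0.502) and MT1G (0.34 ± 0.46, FDR = 0.59) were not called, with 95% intervals from -0.54 to 0.21 and from -0.61 to 1.29. In this bulk RNA, fewer cells with a transcript and less of the transcript per cell cannot be told apart.

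In the same comparison the 3 zinc transport and sensing genes of the set moved little. MTF1 was 0.882-fold in PC (log2 fold change -0.18 ± 0.06 SE, FDR = 0.00865) and SLC30A1 1.11-fold (0.15 ± 0.06, FDR = 0.0465). SLC39A10 was not called (-0.01 ± 0.05, FDR = 0.885). The call of SLC30A1 was at the threshold: it was lost without PC replicate 2 (FDR = 0.186) or NC replicate 2 (0.316), under plain library totals (0.174), without the filter (0.0657), with dispersions from the compared groups alone (0.106), under DESeq2 (0.0805) and under edgeR's quasi-likelihood test (0.0561). That of MTF1 was lost without PC replicate 1 (log2 fold change -0.12, FDR = 0.194) or NC replicate 1 (0.0962) and with those dispersions (0.0502). In all, 6 of 9 tested members were called, 5 higher and 1 lower with serum. Serum changed a large part of the transcriptome, however: 42.4% of all tested genes were called, 21.4% higher and 20.9% lower. The median log2 fold change was 0.34 over the 9 members and 0.47 over the 6 tested metallothioneins, against -0.006 over all genes. Scaled by plain totals, the mean squared difference between the PC libraries was also 11 times that of counting noise, against 2.07 to 2.66 times within the other groups. MT2A, MT1E, MT1X and MT1A were nonetheless called with either PC library left out, MT2A with log2 fold changes of 0.45 to 0.60 over the 4 omissions.

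**Figure D3:**
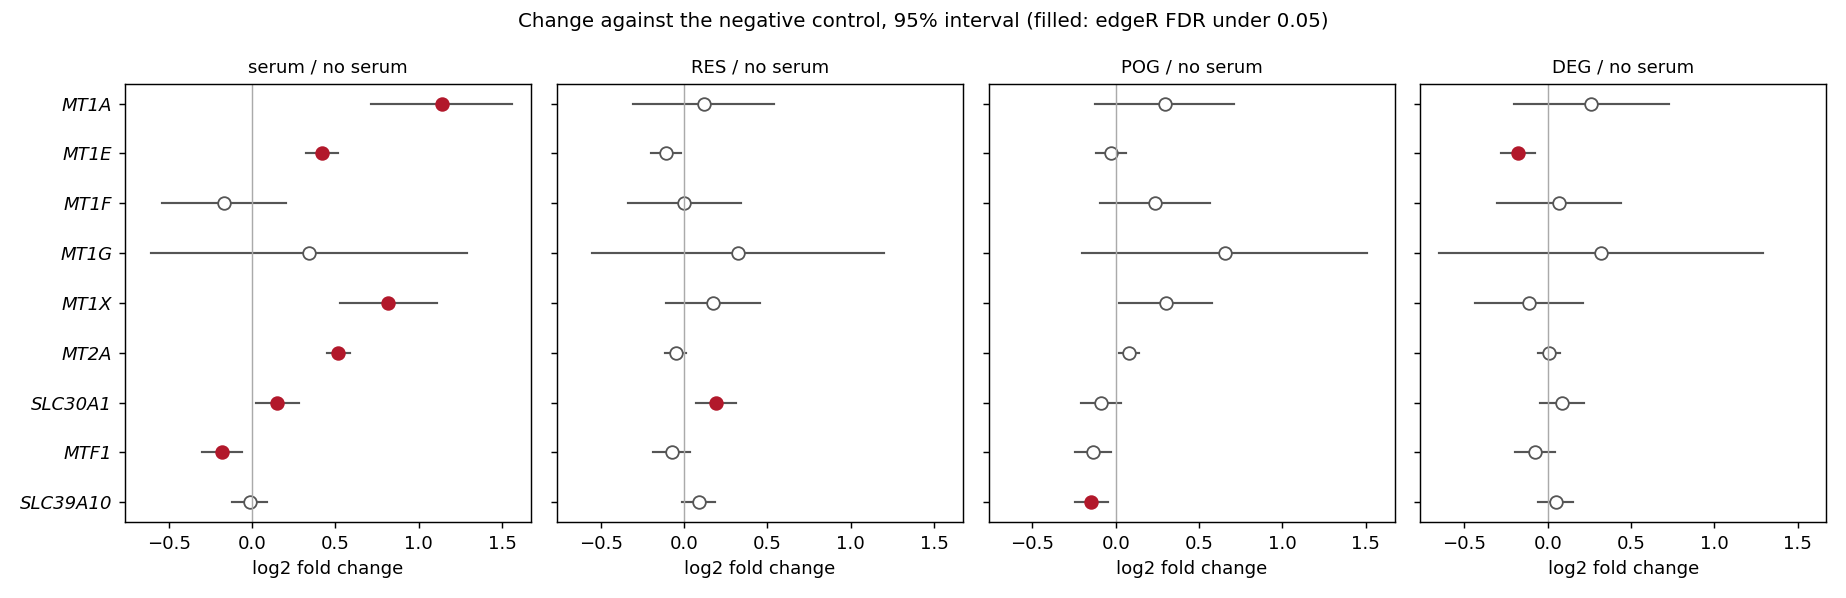
Log2 fold change of the 9 tested members (rows) against the negative control, in 1 panel each for serum (PC), RES, POG and DEG; points are estimates, lines 95% intervals, and filled points were called at an edgeR FDR under 0.05. With serum, MT1A, MT1E, MT1X, MT2A and SLC30A1 are called higher and MTF1 lower, and each compound panel holds a single filled point.

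With resveratrol no large difference in the metallothioneins was measured. None of the 6 tested metallothioneins was called in RES against NC by edgeR's exact test. At an unadjusted p under 0.05 there was 1, and edgeR's quasi-likelihood test and DESeq2 called 0 each. DESeq2 gave no adjusted p-value for 1 of the 6. With dispersions from the compared groups alone, however, MT1E passed as lower with RES (log2 fold change -0.11, FDR = 0.0385). MT2A differed by -0.05 on the log2 scale (95% interval -0.11 to 0.01, FDR = 0.458) and MT1E by -0.11 (-0.20 to -0.02, FDR = 0.128). The intervals were wider for MT1X (-0.11 to 0.46), MT1A (-0.31 to 0.54) and MT1F (-0.34 to 0.34). SLC30A1 was the member that was called, at 1.14-fold higher with RES (log2 fold change 0.19 ± 0.06 SE, FDR = 0.0167). Without RES replicate 3, which had the highest level, its FDR was 0.153, and without NC replicate 2 it was 0.304. MTF1 (-0.07 ± 0.05, FDR = 0.464) and SLC39A10 (0.09 ± 0.05, FDR = 0.279) were not called. Thus 1 of 9 members was called, higher, where 11.2% of all tested genes were called, 4.94% higher and 6.21% lower.

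With POG the importer SLC39A10 was 0.904-fold that of the negative control (log2 fold change -0.15 ± 0.05 SE, FDR = 0.0274). The call rested on single libraries: without NC replicate 2 the log2 fold change was -0.0708 (FDR = 0.596), and FDR was 0.138 without POG replicate 1 and 0.0736 without POG replicate 3, and 0.0831 under plain library totals. MT2A was 1.06-fold (log2 fold change 0.08 ± 0.03 SE, FDR = 0.147) and MT1X 1.23-fold (0.30 ± 0.14, FDR = 0.141), neither of them called. None of the 6 tested metallothioneins was called by the exact test, with 2 at an unadjusted p under 0.05 and 0 by the quasi-likelihood test or DESeq2. DESeq2 gave no adjusted p-value for 1 of the 6. Under plain library totals, however, MT2A passed at a log2 fold change of 0.10 (FDR = 0.0351), and MT1F passed without NC replicate 2 (0.60, FDR = 0.0454). With dispersions from the compared groups alone, MT2A (FDR = 0.000442) and MTF1 (FDR = 0.038) passed as well. In the exact test over all libraries, SLC30A1 (-0.09 ± 0.06, FDR = 0.368) and MTF1 (-0.14 ± 0.05, FDR = 0.0744) were not called. Among all tested genes 14.5% were called in POG against NC, 5.93% higher and 8.57% lower, beside 1 of 9 members, which was lower.

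With DEG the member called was MT1E, at 0.884-fold the negative control (log2 fold change -0.18 ± 0.05 SE, FDR = 0.01). It was the sole metallothionein that the exact test over all libraries called below the serum-starved level in any compound group. Leaving out NC replicate 2 (FDR = 0.305), DEG replicate 1 (0.0827) or DEG replicate 2 (0.129) ended the call. MT1E was also lower with RES, though not called (-0.11, FDR = 0.128). In DEG against RES it was not called either (-0.07 ± 0.04, FDR = 0.313). MT2A differed by 0.01 on the log2 scale, with a 95% interval from -0.06 to 0.08 (FDR = 0.966). SLC30A1 (0.09 ± 0.06, FDR = 0.496), MTF1 (-0.08 ± 0.06, FDR = 0.541) and SLC39A10 (0.05 ± 0.05, FDR = 0.694) were not called. Of all tested genes 9.63% were called in DEG against NC, 3.52% higher and 6.11% lower, and of the 9 members 1, lower. The comparisons with NC all share its 2 libraries, and leaving out NC replicate 2 ended the call in RES, POG and DEG alike.

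Set against each other at the same concentration, RES and POG differed in the zinc transporters and in MT2A. SLC30A1 was 0.821-fold in POG as compared with RES (log2 fold change -0.28 ± 0.05 SE, FDR = 1.23e-06), with the 3 POG libraries at 26.9 to 29.2 CPM and the 3 RES libraries at 32.9 to 37.0 CPM. SLC39A10 was 0.851-fold (-0.23 ± 0.04, FDR = 1.48e-06). MT2A was 1.09-fold higher in POG (0.13 ± 0.03, FDR = 0.000749). For these 3 genes the libraries of the groups did not overlap, and neither did those of MT1A, MT1E and MT1F, which were not called. Here too, the share of all genes separated in this way was not counted. The 3 calls held when any 1 of the 6 libraries was left out. FDR values were then at most 0.0174 for MT2A, 0.000438 for SLC30A1 and 0.000272 for SLC39A10. These calls also held under the other tools, scalings and filters tried, other than a limit of 1 on the log2 fold change. MT1E was not called (0.08, 95% interval 0.00 to 0.16, FDR = 0.146), though it passed with dispersions from the compared groups alone (FDR = 0.0438), nor was MTF1 (-0.06, -0.16 to 0.03, FDR = 0.363). The share called was 3 of 9 members, 1 higher and 2 lower in POG, against 27.9% of all tested genes, 13.7% higher and 14.1% lower. Resveratrol is a stilbene and peonidin-3-O-glucoside an anthocyanin, a flavonoid that carries a sugar.

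Between DEG and RES no member passed the exact test, while 1 did at an unadjusted p under 0.05 and 0 by the quasi-likelihood test and by DESeq2. That gene was MT1X (log2 difference -0.29, 95% interval -0.57 to 0.00, FDR = 0.147), named here after its values were seen. The interval for MT2A ran from 0.00 to 0.12 and that for SLC30A1 from -0.22 to 0.01, both FDR above the threshold (0.286 and 0.216). With dispersions from the compared groups alone, MT2A passed as higher in DEG (FDR = 0.0279). In that comparison 21.2% of all tested genes were called, 10.3% higher and 10.8% lower in DEG. Between DEG and POG few genes passed: 1.05% of those tested were called, 0.55% higher and 0.497% lower in DEG. SLC39A10 was 1.14-fold higher in DEG than in POG (log2 fold change 0.19 ± 0.05 SE, FDR = 0.0147), the 1 member of 9 called. That call was lost without POG replicate 1 (FDR = 0.128), POG replicate 3 (0.0715), DEG replicate 1 (0.312) or DEG replicate 2 (0.182). The 95% intervals of MT1E (-0.24 to -0.06), MT1X (-0.70 to -0.13), MT2A (-0.13 to -0.01) and SLC30A1 (0.06 to 0.30) also left out 0 in DEG against POG, although their FDR values of 0.0932, 0.147, 0.49 and 0.134 did not pass. With dispersions from the compared groups alone, MT1E (FDR = 0.00177), MT2A (0.00157) and SLC30A1 (0.02) passed.

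**Figure D4:**
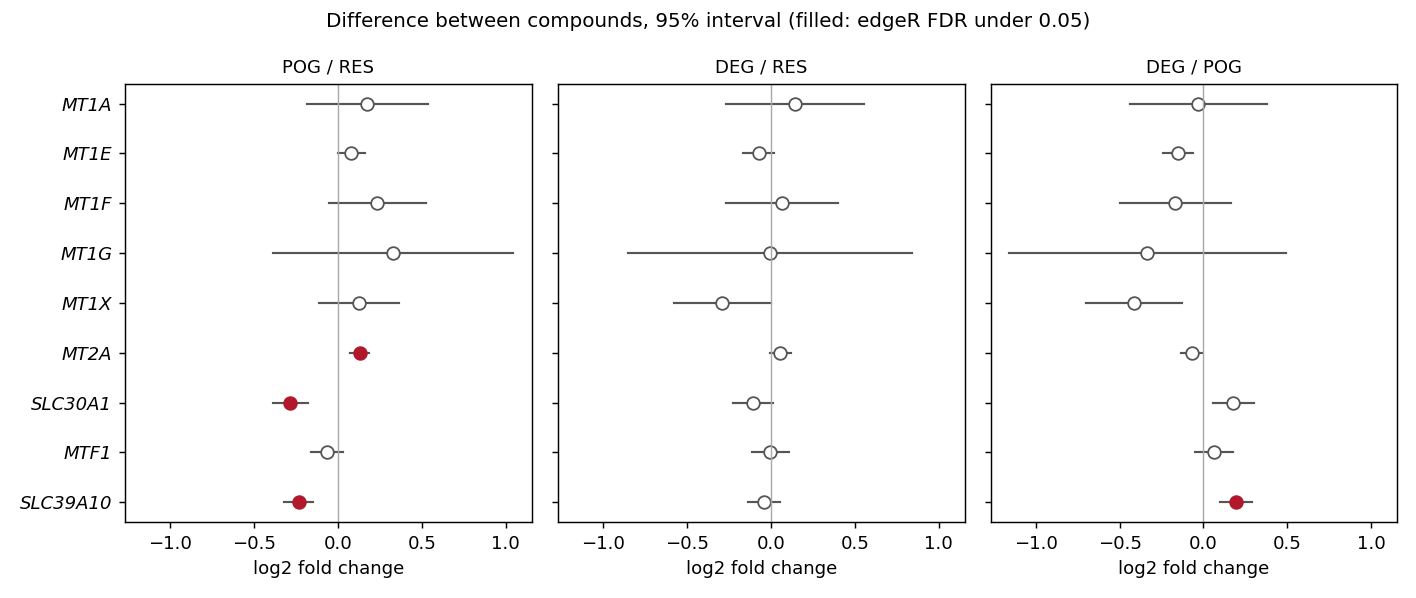
Log2 differences of the 9 tested members (rows) between compounds, with 1 panel each for POG over RES, DEG over RES and DEG over POG; points are estimates, lines 95% intervals, and filled points were called at an edgeR FDR under 0.05. MT2A, SLC30A1 and SLC39A10 are filled for POG over RES, none for DEG over RES, and SLC39A10 for DEG over POG.

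The metallothioneins of serum-fed osteoblasts also stood above those of each compound group. As compared with RES, MT2A was 1.48-fold higher in PC (FDR = 1.31e-52), MT1E 1.44-fold (FDR = 2.6e-30), MT1X 1.56-fold (FDR = 1.75e-06) and MT1A 2.03-fold (FDR = 3.53e-08). As compared with POG, the same genes were 1.35-fold (MT2A, FDR = 1.06e-31), 1.36-fold (MT1E, FDR = 2.59e-22), 1.43-fold (MT1X, FDR = 0.000118) and 1.80-fold (MT1A, FDR = 4.39e-06) higher in PC. As compared with DEG they were 1.42-fold (MT2A, FDR = 1.49e-34), 1.51-fold (MT1E, FDR = 4.45e-31), 1.91-fold (MT1X, FDR = 1.89e-09) and 1.83-fold (MT1A, FDR = 4.26e-05) higher in PC. These comparisons share the PC libraries. SLC30A1 (1.18-fold, FDR = 0.000141) and SLC39A10 (by 9.53%, FDR = 0.0169) were also higher in PC than in POG, and MT1F was lower (0.756-fold, FDR = 0.0253). The MT1F call was lost under DESeq2 (FDR = 0.0674) and without PC replicate 2 (0.237), POG replicate 2 (0.0911) or POG replicate 3 (0.0819). The SLC39A10 call was lost under plain library totals (FDR = 0.285) and without PC replicate 2 (log2 fold change 0.0595, FDR = 0.331) or POG replicate 1 (0.0858). Plain totals also added calls of MTF1 (log2 fold change -0.18, FDR = 0.00361) and SLC39A10 (-0.17, FDR = 0.00168) as lower in PC than in RES, and of MTF1 as lower in PC than in DEG (-0.17, FDR = 0.0163). Without PC replicate 2, MTF1 (FDR = 0.0379) and SLC39A10 (0.000999) passed in PC against RES and SLC39A10 (0.0237) in PC against DEG, and MTF1 passed without RES replicate 1 (0.0439). The members called were thus 4 of 9 in PC against RES (4 higher), 7 in PC against POG (6 higher, 1 lower) and 4 in PC against DEG (4 higher). Of all tested genes, 45.7% were called in PC against RES (23.2% higher, 22.5% lower), 47.9% in PC against POG (24.2% higher, 23.8% lower) and 43.4% in PC against DEG (22.3% higher, 21.1% lower).

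Ordered by group mean, MT2A ran PC, POG, DEG, NC, RES, and SLC30A1 ran RES, PC, DEG, NC, POG. For MT2A the neighbours PC and POG differed, whereas POG and DEG (FDR = 0.49), DEG and NC (0.966) and NC and RES (0.458) did not pass edgeR's exact test. With dispersions estimated from the compared groups alone, MT2A did pass in DEG against POG (FDR = 0.00157). For SLC30A1 no neighbours in the order passed, with edgeR FDR values of 0.621, 0.456, 0.496 and 0.368, although its ends, RES and POG, were. SLC39A10 ran RES, DEG, NC, PC, POG, and PC and POG were the only neighbours that differed.

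Likeness of pattern was measured as the root mean square distance between the 5 centred group means on the log2 scale, over 13398 genes. The genes nearest to MT2A were FARSB (0.00898), which encodes a subunit of a tRNA synthetase, KIF20A (0.0112), a kinesin of dividing cells, SRI (0.0176), a calcium-binding protein, HSPA12A (0.0182) and HSPD1 (0.0188), a mitochondrial chaperone. The members of the set were left out before this ranking, so no other metallothionein of the set could be among them. Within a distance of 0.1 lay 803 genes, where the range of MT2A over the groups was 0.565. Nearest to SLC30A1 were MRPL53 (0.0112), STPG1 (0.0188), LPCAT2 (0.0277), CSPG4 (0.0311) and XKR8 (0.0312), with 1989 genes within 0.1 and a range of 0.282.

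Of the metallothionein genes outside the set, 1 of 6, MT1L, was tested, and it rose with serum: 4.49 and 3.60 CPM in PC against 2.22 and 2.11 CPM in NC (log2 fold change 0.91 ± 0.18 SE, FDR = 3.58e-06). It was not called in RES, POG or DEG against NC or between compounds. MT1B and MT1HL1 had 0 reads, and MT1H, MT4 and MT3 had 2, 3 and 56 reads over all libraries. Of 8 metallothionein pseudogenes 2 were tested, MT2P1 and MT1XP1. Neither was called in the 7 comparisons with NC or between compounds, by the exact or the quasi-likelihood test, or had an unadjusted p under 0.05. DESeq2 called neither, but it gave no adjusted p-value for either gene in RES and DEG against NC and in DEG against POG. It lacked that value for 1 of the 2 in POG against NC, POG against RES and DEG against RES. MT1P1, which was below the filter with 22 reads in all and is named here after its values were seen, was at 0.103 and 0.151 CPM in NC and had 0 reads in the 3 POG libraries and in 2 of the RES libraries. It was at 0.0224 CPM in RES replicate 3, at 0.155 and 0.0509 CPM in DEG, and at 0.0202 and 0.0474 CPM in PC.

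Among the other SLC30 exporter genes, 6 of 9 were tested, and 3 of the 6 were called with serum, beside 42.4% of all tested genes. SLC30A3 (ZnT3), known for loading zinc into synaptic vesicles, was at 2.61 and 2.51 CPM in PC and 6.43 and 6.86 CPM in NC (log2 fold change -1.37 ± 0.13 SE, FDR = 1.06e-22). SLC30A7 fell (-0.18 ± 0.05, FDR = 0.00127) and SLC30A9 rose (0.16 ± 0.04, FDR = 0.00236), calls that were lost without NC replicate 2 (FDR = 0.0927 and 0.0555) and also, for SLC30A7, without PC replicate 1 (0.0512) and, for SLC30A9, with dispersions from the compared groups alone (0.0548). SLC30A3 was also lower with RES, at 4.31, 4.85 and 5.09 CPM (-0.48 ± 0.11 against NC, FDR = 0.000477, and 0.0504 without NC replicate 2). It was higher in POG (0.63 ± 0.10, FDR = 1.81e-09) and in DEG (0.58 ± 0.11, FDR = 3.82e-06) than in RES. SLC30A3 was the 1 gene of the 6 called in RES against NC, in POG against RES and in DEG against RES. Of all tested genes, 11.2%, 27.9% and 21.2% were called there. SLC30A5, the most abundant of these exporters, was not called in the 7 comparisons. None of the 6 was called in POG or DEG against NC or in DEG against POG by the exact test, the quasi-likelihood test or DESeq2, with 0, 0 and 1 at an unadjusted p under 0.05. DESeq2 gave no adjusted p-value for 1 of the 6 in DEG against POG. Of all tested genes 14.5%, 9.63% and 1.05% were called by the exact test in these comparisons.

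The other SLC39 importer genes, of which 11 of 13 were tested, included the largest called changes of a zinc transporter with POG and with DEG. SLC39A14 (ZIP14), an importer of zinc, iron and manganese and the most abundant of them, was at 466 and 485 CPM in NC and 474, 478 and 470 CPM with RES. It was 354, 349 and 349 CPM with POG (log2 fold change against NC -0.44 ± 0.03 SE, FDR = 3.89e-40) and 365 and 360 CPM with DEG (-0.39 ± 0.03, FDR = 1.13e-25). All POG and DEG libraries were below all others, PC included, and SLC39A14 was lower than with RES in both groups as well (-0.43, FDR = 6.36e-49, and -0.39, FDR = 3.82e-30). SLC39A8 (ZIP8) was at 12.9 and 13.1 CPM with serum against 27.5 and 30.1 CPM without (-1.15 ± 0.07, FDR = 1.04e-54). SLC39A8 was lower with DEG (-0.29 ± 0.07, FDR = 0.000875) and with POG (-0.17 ± 0.06, FDR = 0.0443), calls that did not hold without NC replicate 2 (FDR = 0.121, and 0.546 with a log2 fold change of -0.0998). The DEG call of SLC39A8 was also lost without DEG replicate 2 (0.071), and its POG call without POG replicate 1 (0.116) or 2 (0.219), under plain totals, without the filter, under DESeq2 and under the quasi-likelihood test.

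SLC39A7 (ZIP7), which releases zinc from the endoplasmic reticulum, was lower with RES (-0.15 ± 0.03 against NC, FDR = 0.000624) and higher with DEG (0.16 ± 0.03, FDR = 0.000676). As compared with RES it was higher in POG (0.22, FDR = 4.86e-11) and in DEG (0.31, FDR = 4.49e-17). SLC39A6 was lower with RES (-0.17 ± 0.04, FDR = 0.000513). Without NC replicate 2 the RES calls of SLC39A7 and SLC39A6 ended (0.054 and 0.104). SLC39A9 was lower with serum (-0.19 ± 0.04, FDR = 0.000395), but without NC replicate 2 its log2 fold change was -0.11 (FDR = 0.125). It was higher with DEG (0.14 ± 0.04, FDR = 0.0414), a call lost under the quasi-likelihood test (0.0529), without the filter (0.0881) and without DEG replicate 1 (0.118), DEG replicate 2 (0.327) or NC replicate 1 (log2 fold change 0.0711, FDR = 0.622). Counted over the list, 2 of 11 were called with serum, 2 with RES and 2 with POG, all lower, and 4 with DEG, 2 higher and 2 lower, beside 42.4%, 11.2%, 14.5% and 9.63% of all tested genes. Between compounds, 4 were called in POG against RES and 5 in DEG against RES, beside 27.9% and 21.2% of all tested genes. Of these, SLC39A6 was lost in POG against RES in 4 of 6 omissions (FDR = 0.0555 to 0.0659, without POG replicate 1 or 2 or RES replicate 2 or 3), and in DEG against RES SLC39A6 (0.0626) and SLC39A9 (0.181) were lost without DEG replicate 2. In DEG against POG 0 were called, beside 1.05% of all tested genes. There 1 had an unadjusted p under 0.05, and the quasi-likelihood test and DESeq2 called 0. DESeq2 gave no adjusted p-value for 1 of the 11.

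Copper is the other metal that metallothioneins hold, and its 9 handling genes were all tested. With serum 3 of 9 were called, beside 42.4% of all tested genes. CCS, the copper chaperone of superoxide dismutase, was lower (-0.28 ± 0.06, FDR = 6.84e-05), and ATOX1 (0.22 ± 0.06, FDR = 0.00274) and SOD1 (0.12 ± 0.04, FDR = 0.02), the most abundant, were higher. The ATOX1 call was lost without PC replicate 1 (log2 fold change 0.13, FDR = 0.169) or NC replicate 1 (0.0699), and that of SOD1 without PC replicate 1 (0.0553, FDR = 0.277), without either NC library (0.0761 and 0.105), under plain totals (0.163) and with dispersions from the compared groups alone (0.17). In POG 1 was called, SLC31A2 (-0.33 ± 0.09, FDR = 0.00199, and 0.0878 without NC replicate 2), beside 14.5% of all tested genes. In RES and DEG none was called, beside 11.2% and 9.63% of all tested genes. There, 1 each had an unadjusted p under 0.05, and the quasi-likelihood test and DESeq2 called 0. In POG against RES 4 were called, beside 27.9% of all tested genes. SLC31A2 was lower in POG (-0.38 ± 0.08, FDR = 9.68e-06), and ATP7B, SLC31A1 and CCS were higher. The libraries overlapped for ATP7B (0.23 ± 0.08, FDR = 0.0164), which was lost in 4 of 6 omissions (0.0795 to 0.137, without POG replicate 1 or 3 or RES replicate 1 or 3), and CCS (0.16 ± 0.05, FDR = 0.0069) was lost without POG replicate 3 (0.0718). In DEG against RES 1 was called, SLC31A1, the copper importer (0.17 ± 0.04, FDR = 0.00228, and 0.101 without DEG replicate 2), beside 21.2% of all tested genes. In DEG against POG, where 1.05% of all tested genes were called, the count was 0 by all 3 tools, with 1 at an unadjusted p under 0.05.

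Most genes of a list tied to the stress that metals and oxidants bring on were lower with serum and with RES than in NC. The list held 8 genes, all tested: HMOX1, HSPA1A, HSPA1B, DNAJB1, GCLM, GCLC, SLC7A11 and TXNRD1. With serum 7 were called, 6 lower and 1 higher, and with RES 6 were called, all lower, beside 42.4% and 11.2% of all tested genes. Of the serum calls, HMOX1 (-0.18 ± 0.07, FDR = 0.0276) was lost under DESeq2 (0.0588), without the filter (0.0541), with dispersions from the compared groups alone (0.0787) and without NC replicate 2 (0.23) or PC replicate 2 (0.222). The higher gene, DNAJB1 (0.14 ± 0.04, FDR = 0.00186), was lost with those dispersions (0.0682). SLC7A11, which brings in cystine for glutathione, was at 16.6 and 22.2 CPM in PC, 37.5 and 38.6 CPM in NC, and 25.1, 27.5 and 24.7 CPM with RES (log2 fold changes -0.98 ± 0.08 SE, FDR = 1.55e-32, and -0.56 ± 0.07, FDR = 5.56e-13). GCLM, a subunit of the enzyme that starts glutathione synthesis, fell by 0.48 on the log2 scale with serum (FDR = 1e-16) and by 0.45 with RES (FDR = 3.95e-16). The heat shock gene HSPA1A fell by 0.41 (FDR = 9.01e-17) and by 0.40 (FDR = 2.14e-17), and its near-identical copy HSPA1B could share its reads. TXNRD1, the most abundant of the list, which encodes thioredoxin reductase, fell by 0.20 (FDR = 1.38e-06) and by 0.39 (FDR = 4.91e-24). The comparisons of PC and RES with NC share the NC libraries.

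With POG and with DEG none of the 8 metal stress genes was called against NC by edgeR's exact test, the quasi-likelihood test or DESeq2, with 1 and 2 genes at an unadjusted p under 0.05. Of all tested genes the exact test called 14.5% and 9.63%. As compared with RES, 7 of 8 were higher in POG, among them HSPA1A (0.40 ± 0.04, FDR = 4.19e-23) and SLC7A11 (0.40 ± 0.06, FDR = 1.14e-08), and 6 of 8 in DEG, among them SLC7A11 (0.64 ± 0.07, FDR = 1.27e-17) and TXNRD1 (0.47 ± 0.03, FDR = 4.26e-37), beside 27.9% and 21.2% of all tested genes. DNAJB1 was at the threshold in POG against RES (0.08 ± 0.03, FDR = 0.0496) and was lost in 5 of 6 omissions (0.0911 to 0.234, all but that of RES replicate 3), under plain totals (0.0597), without the filter (0.115) and with the filter at a mean of 1 CPM (0.0544). In DEG against POG, where 1.05% of all tested genes were called, the exact test called 2 of 8, SLC7A11 (0.25, FDR = 0.0438) and TXNRD1 (0.13, FDR = 0.0327). The quasi-likelihood test called 0 and DESeq2 called 1. The exact test calls of SLC7A11 and TXNRD1 were both lost with any of the 5 libraries left out, where the lowest FDR values were 0.11 for SLC7A11 and 0.0526 for TXNRD1. The median log2 fold change of the list was -0.26 in PC, -0.35 in RES, -0.02 in POG and 0.02 in DEG. MT2A, set beside it, stood at 0.52, -0.05, 0.08 and 0.01 in the same order.

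**Figure D5:**
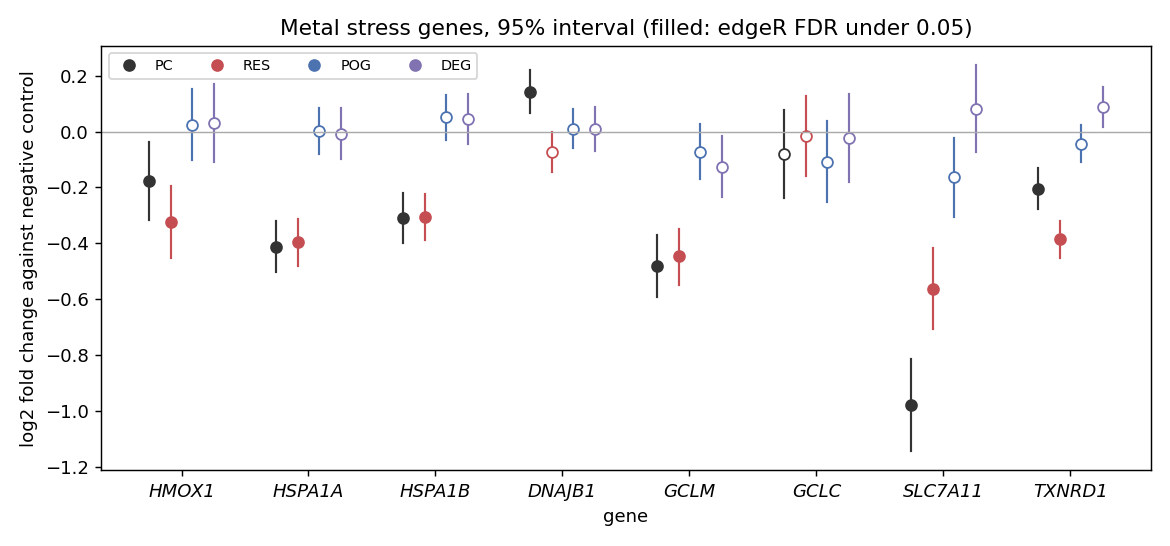
Log2 fold change against the negative control (y axis) of the 8 metal stress genes (x axis) in PC, RES, POG and DEG; points are estimates, lines 95% intervals, and filled points were called at an edgeR FDR under 0.05. The filled points are those of PC for 7 genes and of RES for 6, and none of POG or DEG is filled.

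Of the 10 osteoblast markers, COL1A1 (2670 CPM on average), COL1A2 (1230 CPM) and SPARC (1070 CPM), which fibroblasts also express, made up nearly all of the sum. RUNX2 was at 47.8 CPM, ALPL at 4.54, SPP1 at 1.64, BGLAP at 1.25 and DLX5 at 1.16 CPM, and IBSP and SP7 had 1 and 53 reads in all. ALPL, the zinc-dependent alkaline phosphatase, was at 6.59 and 6.66 CPM in PC and 4.42 and 3.72 CPM in NC (log2 fold change 0.70 ± 0.14 SE, FDR = 1.5e-06). Of 8 tested markers 2 were called with serum, ALPL and SPARC, both higher, beside 42.4% of all tested genes. COL1A2 was called lower with RES, and COL1A1, COL1A2 and SPP1 lower with POG and with DEG, beside 11.2%, 14.5% and 9.63% called in either direction. The quasi-likelihood test and DESeq2 each called 3 of the 8 with serum, 2 with RES and 3 with POG. With DEG they called 2 and 3. The marker calls were not run under the other alternatives. The sum was 5460 to 5520 CPM in PC, 5260 to 5320 CPM in NC, 4910 to 5030 CPM in RES and 4750 to 4790 CPM in POG and DEG. Of 5 blood cell markers, TYROBP had 0 reads and PTPRC 23, and the sum was 0.771 to 1.88 CPM in all libraries. The 5 endothelial markers summed to 56.8 to 59.9 CPM in PC, 44.6 to 46.8 CPM in NC, 56.8 to 64.6 CPM in RES, 38.1 to 40.4 CPM in POG and 40.1 to 41.3 CPM in DEG, mostly TEK, while CDH5 had 16 reads. With serum all 4 tested endothelial markers were called, beside 42.4% of all tested genes. TEK and KDR were higher, whereas PECAM1 and VWF were lower. VWF was at 0.384 and 0.213 CPM in PC against 2.349 and 2.715 CPM in NC. The 5 epithelial markers, nearly all KRT8 and KRT18, summed to 467 to 509 CPM in PC, 400 to 408 CPM in NC, 447 to 458 CPM in RES, 340 to 350 CPM in POG and 366 to 371 CPM in DEG, while CDH1 had 56 reads. SLC30A1 was likewise high in PC and RES and low in POG. In DEG, however, where both sums were below those of NC, SLC30A1 was at 31.45 and 32.89 CPM, against 31.27 and 29.28 CPM in NC. The part of the endothelial and epithelial markers in its values was not tested.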

How the data were processed

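Poly-A selected mRNA of 13 labelled samples in 5 groups was sequenced in read pairs. Raw read counts per Ensembl gene, not normalised, were deposited by the authors as 1 table. Per their methods, reads were checked with FastQC and aligned to hg38 with STAR (BWA MEM is also named), counted with featureCounts and tested with edgeR; how multi-mapped reads and strand were handled, the versions and the annotation release are not given in the sources used here, although the kit selected a strand. The table held 12 libraries; DEG replicate 3 is among those labelled but not analysed here. Replicate numbers follow accession order and only name libraries.

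Library totals were 38464619 to 51416358 reads. After filterByExpr by group, 17092 genes remained, with 99.967% of the reads. Groups were compared with edgeR 4.0.16 (R 4.3.3): TMM scaling, tagwise dispersions over all 12 libraries (common biological coefficient of variation 3.21%), the exact test named in the study's methods, and Benjamini-Hochberg adjustment (FDR) over all tested genes, called under 0.05. SE and 95% intervals came from edgeR's quasi-likelihood fit. The test was checked on simulated counts with 200 changed genes. CPM used TMM-scaled totals; lengths were those of the canonical transcript in GENCODE v44, and symbols matched 43214 identifiers. Identity between coding sequences was computed with Biopython 1.88.

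10 comparisons were made between the groups, 7 of them against NC or between compounds. Each library was left out in turn. Further alternatives were DESeq2 1.42.0, DESeq2 size factors in the exact test, plain library totals, the quasi-likelihood test of edgeR, no filter, a filter at a mean of 1 CPM, dispersions estimated from the compared groups alone, an FDR of 0.01, and calls only past 1 in absolute log2 fold change. Named were the 10 members, and from each other list at most 3 called genes with the largest absolute log2 fold change per comparison and its most abundant gene, and the 5 genes most like MT2A and SLC30A1. The members and lists were chosen with earlier results of these data known.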

Additional observations from a re-analysis of the deposited data

How the results depend on the processing

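No paired analysis was possible because the labels give no replicate numbers. Of 1045 values of the members under the alternatives, 966 kept their direction and side of the threshold, 30 lost the call, 17 gained it and 32, none of them called, changed sign. Of 752 values of called genes of the other lists, the marker lists left out, 680 kept both and 72 lost the call. The causes were not tested, beyond fewer libraries where 1 was left out. The number of members called was 1 with serum under a limit of 1 on the log2 fold change, and 1 in PC against RES, with 0 in every other comparison that had calls. At an FDR of 0.01 it was 0 for RES, POG and DEG against NC and for DEG against POG. With dispersions from the compared groups it was 4 instead of 6 with serum, 2 for RES, 3 for POG, 4 instead of 3 for POG against RES, 1 for DEG against RES and 4 for DEG against POG. With 1 library left out it was 5 each time with serum, and from 0 to 1 for RES, POG and DEG against NC and for DEG against POG. The summed NC metallothionein level was 1044 CPM under plain totals. Sign changed under single omissions in log2 fold change against NC for MT1F with serum (-0.45 to 0.20), RES (-0.28 to 0.36), POG (-0.0462 to 0.60) and DEG (-0.21 to 0.43), SLC39A10 with serum (-0.0835 to 0.0659) and DEG (-0.0202 to 0.12), MT1A with RES (-0.0863 to 0.36), MT1E with POG (-0.0746 to 0.0241) and MT2A with DEG (-0.0118 to 0.0279). The same held between groups for MT1A (-0.0716 to 0.34), MT1G (-0.19 to 0.19) and MTF1 (-0.0335 to 0.0179) in DEG against RES, MT1A in DEG against POG (-0.25 to 0.16), MT1G (-0.17 to 0.21) and SLC30A1 (-0.0794 to 0.0096) in PC against RES, MT1G (-0.11 to 0.14) and SLC39A10 (-0.13 to 0.0158) in PC against DEG, and MTF1 in PC against POG (-0.0945 to 0.0143). MTF1 in DEG against RES was 0.0012 under DESeq2 and under its size factors, and MT1G was -0.0544 in PC against RES and -0.041 in PC against DEG under plain totals. Plain totals moved the share of called genes that were higher from 44.3% to 64% for RES, from 40.9% to 56% for POG and from 36.6% to 49.3% for DEG against NC, and from 50.8% to 34.8%, 50.4% to 36.7% and 51.3% to 37.7% for PC against RES, POG and DEG. Scarce transcripts, MT1G at 13 to 32 reads and MT1M at up to 10 reads a library, limit what could be detected.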
